A study of Mus musculus with 6 samples.

Results

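Cholesterol synthesis and lipid handling was followed through the neuronal differentiation of mouse embryonic stem cells as a module of 30 genes, listed by name for their place in the pathway. The 30 genes are 18 enzymes that build sterols from acetyl-CoA, 4 genes of the SREBP system that controls them, 5 genes of sterol transport and lipoproteins, and 3 enzymes of fatty acid synthesis. They were found by gene name among the 46517 genes of each table, and all 30 passed the filter for testing, a level of 1 TPM or more in 2 or more libraries. TPM is a transcript level per length, and its sum is the same for every library.

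RNA was sequenced from E14TG2a, a wild-type mouse embryonic stem cell line, in 6 libraries, with 2 for each of the groups titled mESC, NPC and NC. The mESC cells were cultured without feeders on gelatin with serum and LIF (leukaemia inhibitory factor), the NPC and NC cells came from a published protocol for turning such cells into neurons, and no group received any other treatment. The series describes its stages as stem cells, neuronal progenitors and glutamatergic pyramidal neurons. The labels do not spell out NC, which is taken here as the neuronal stage, and the groups rest on the titles, since every sample carries embryonic stem cells as its cell type. All libraries come from 1 cell line, and the labels call the pairs biological replicates without naming separate cultures.

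Cells make cholesterol by joining acetyl-CoA units into mevalonate, condensing isoprenoid units into squalene, closing squalene to lanosterol, and trimming lanosterol to cholesterol. The transcription factor SREBP-2 raises nearly all of these genes together when the endoplasmic reticulum is low in sterol: SCAP then carries SREBP to the Golgi, where it is cut and released, while INSIG proteins hold it back when sterol is plentiful. The brain makes its own cholesterol, because lipoproteins of the blood do not cross into it, and astrocytes pass it to neurons on particles that carry ApoE.

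Promoters were read first, since SREBP acts on its targets together with the factors NF-Y and Sp1, and the module can be seen as genes with shared boxes. RefSeq windows of GRCm38.p6, from 250 bases before to 50 after a transcript start, were found for 22 of the 30 genes, in 30 windows; Fdps, Fdft1, Sqle, Stard4, Lpl, Abcg1, Scd1 and Scd2 had none. The 5 stretches that follow lie before the start, on the strand of the gene, and each is the longest run that no annotated exon covers (GENCODE vM21). They show the 1 gene with an exact match to the SREBP element, the gene with the most NF-Y boxes, the enzyme gene with the largest fitted rise between mESC and NC, the SREBP inhibitor that fell, and the gene with the largest fall. Capitals mark the SREBP element TCACNCCAC and the NF-Y box CCAAT, either of them read on both strands.
Hmgcs1, chr13:119690101-119690350, forward strand: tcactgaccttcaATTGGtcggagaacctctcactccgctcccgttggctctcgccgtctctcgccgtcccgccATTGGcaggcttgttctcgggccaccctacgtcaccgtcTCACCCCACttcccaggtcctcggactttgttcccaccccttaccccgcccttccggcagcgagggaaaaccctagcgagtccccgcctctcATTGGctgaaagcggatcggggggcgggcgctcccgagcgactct
Mvk, chr5:114444061-114444268, forward strand: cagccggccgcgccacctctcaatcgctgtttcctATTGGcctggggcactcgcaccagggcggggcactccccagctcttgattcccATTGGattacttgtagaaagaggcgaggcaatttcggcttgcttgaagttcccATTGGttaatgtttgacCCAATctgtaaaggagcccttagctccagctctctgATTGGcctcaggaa
Hsd17b7, chr1:169969242-169969408, reverse strand: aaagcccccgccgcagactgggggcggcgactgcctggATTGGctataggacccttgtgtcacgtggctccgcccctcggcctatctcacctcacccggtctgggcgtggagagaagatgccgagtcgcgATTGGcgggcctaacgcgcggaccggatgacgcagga
Insig1, chr5:28071162-28071362, forward strand: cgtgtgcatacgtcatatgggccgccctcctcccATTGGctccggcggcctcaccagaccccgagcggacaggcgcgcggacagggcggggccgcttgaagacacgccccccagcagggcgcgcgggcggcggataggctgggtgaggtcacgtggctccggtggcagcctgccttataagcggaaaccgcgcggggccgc
Apoe, chr7:19699189-19699438, reverse strand: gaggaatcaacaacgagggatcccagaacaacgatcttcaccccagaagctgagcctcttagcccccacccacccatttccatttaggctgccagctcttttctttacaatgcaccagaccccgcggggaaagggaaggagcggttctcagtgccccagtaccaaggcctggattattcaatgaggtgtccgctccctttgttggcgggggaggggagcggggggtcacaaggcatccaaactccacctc

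The Hmgcs1 stretch held the only match to the SREBP element among the 22 genes, or 4.55% of them, beside 1.49% of the 11464 tested genes with a window. In that stretch it has 2 NF-Y boxes on the side away from the start and 1 on the side of the start. The start that RefSeq gives for Hmgcs1 lies before the gene start of the tables. The NF-Y box was common in the module. It was present in 14 of the 15 sterol-building genes with a window, or 93.3%, and in 18 of all 22, or 81.8%, beside 42.9% of the tested genes. Mvk had 5 such boxes, Hmgcs1 and Nsdhl had 4 each, and Acat2 was the 1 enzyme gene without any. The Sp1 box GGGCGG was found in 14 of 15 enzyme genes, or 93.3%, beside 67.6% of tested genes. It can overlap the NF-Y box by its end letters. A repeat of AGGTCA with 4 bases between the copies, which the liver X receptors bind, was in none of the 22 genes, and in 0.0148% of all 27025 genes with windows. None of the 3 Apoe windows held any of these motifs. Dhcr7, Apoe and Srebf1 have 3 windows each and Pmvk and Scap have 2, which gives them more chances of a match. These are matches of letters in a window, and whether a factor binds there was not measured. Only exact letters were sought, so that elements with other letters or outside the windows were not counted.

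**Figure D1:**
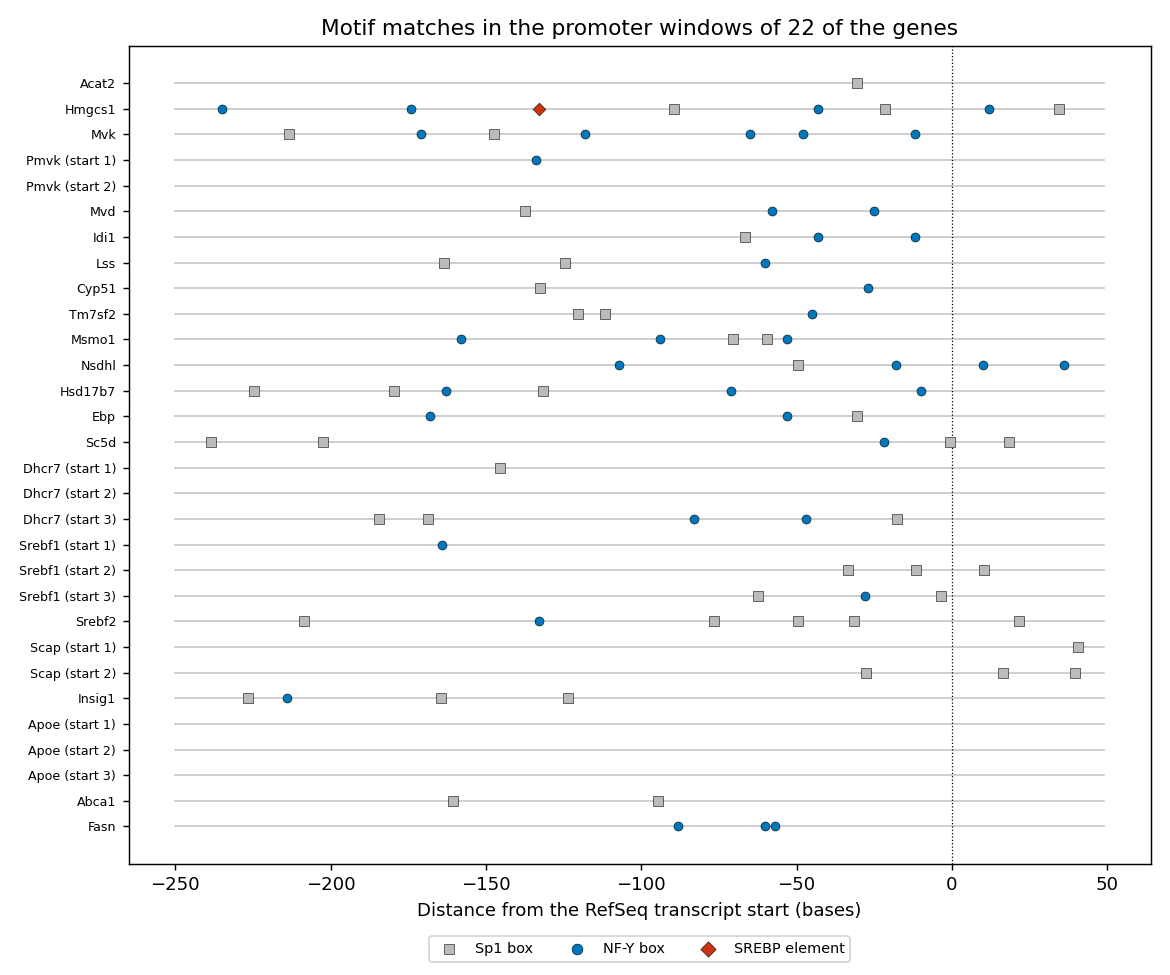
Motif matches in the 30 RefSeq windows of 22 genes, by distance in bases from the transcript start; each grey line is 1 window. Circles are NF-Y boxes, squares are Sp1 boxes and the diamond is the SREBP element. NF-Y boxes are present in 14 of the 15 sterol enzyme genes, while the 3 Apoe windows are empty.

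The libraries held an estimated 1.57 to 2.27 Gb of aligned bases, and leading markers followed the stages of the titles. Pou5f1, a pluripotency factor, was at 1475 and 1891 TPM in mESC and at most 1.08 elsewhere, Pax6 of neural progenitors was highest in NPC at 257 and 181 TPM, and Tubb3 of neurons was highest in NC at 2136 and 1912 TPM. The sum of 6 neural progenitor markers did not peak in NPC, at 1418 and 1456 TPM there and 1730.5 and 1564 TPM in NC. Of these 6 markers, 5 were lower and 1 was higher in NC against NPC by log2 fold change. The glutamate transporter Slc17a6 reached 28.9 and 21.6 TPM in NC. Other cell types also appeared. All 9 tested of 10 fibroblast and smooth muscle markers rose in NC, where their sum was 1021 and 1126 TPM against 41.9 and 80.7 in NPC. The sum of 10 astrocyte and radial glia markers was 1269 and 384 TPM in NC replicates 1 and 2. It was 274 and 337 TPM in NPC and 185 and 123 TPM in mESC. Of the 7 tested astrocyte and radial glia markers, 2 were called higher and 1 lower in NC against NPC, or 42.9%, beside 25.3% of all tested genes. Markers of cycling cells summed to 1209.7 and 1239 TPM in mESC and 374 and 388 in NC. In such bulk RNA, fewer cells of a type and less RNA per cell cannot be told apart.

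The summed level of the module was much the same at each stage. The 30 genes together made up 3598 and 3013 (mESC), 3181 and 3559.6 (NPC) and 3756 and 2910.5 (NC) TPM. The 18 sterol-building enzymes summed to 1294 and 1558 (mESC), 1254 and 1296 (NPC) and 1805 and 1568 (NC) TPM. The NPC libraries and mESC replicate 1 were alike and lowest in this sum, and NC replicate 1 stood above the rest. Within the module the levels spanned a wide range, from Lpl at 3.27 TPM in NC replicate 2 to Scd2 at 1275 TPM in NPC replicate 2. Among the enzymes, Fdps and Hmgcs1 were in the 3 highest by mean TPM at each stage, and their libraries overlapped in mESC but not in NPC or NC. Hsd17b7 was the lowest in mESC, below all libraries of the other enzymes, and Hsd17b7 and Ebp were the 2 lowest in NPC, where they overlapped.

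**Figure D2:**
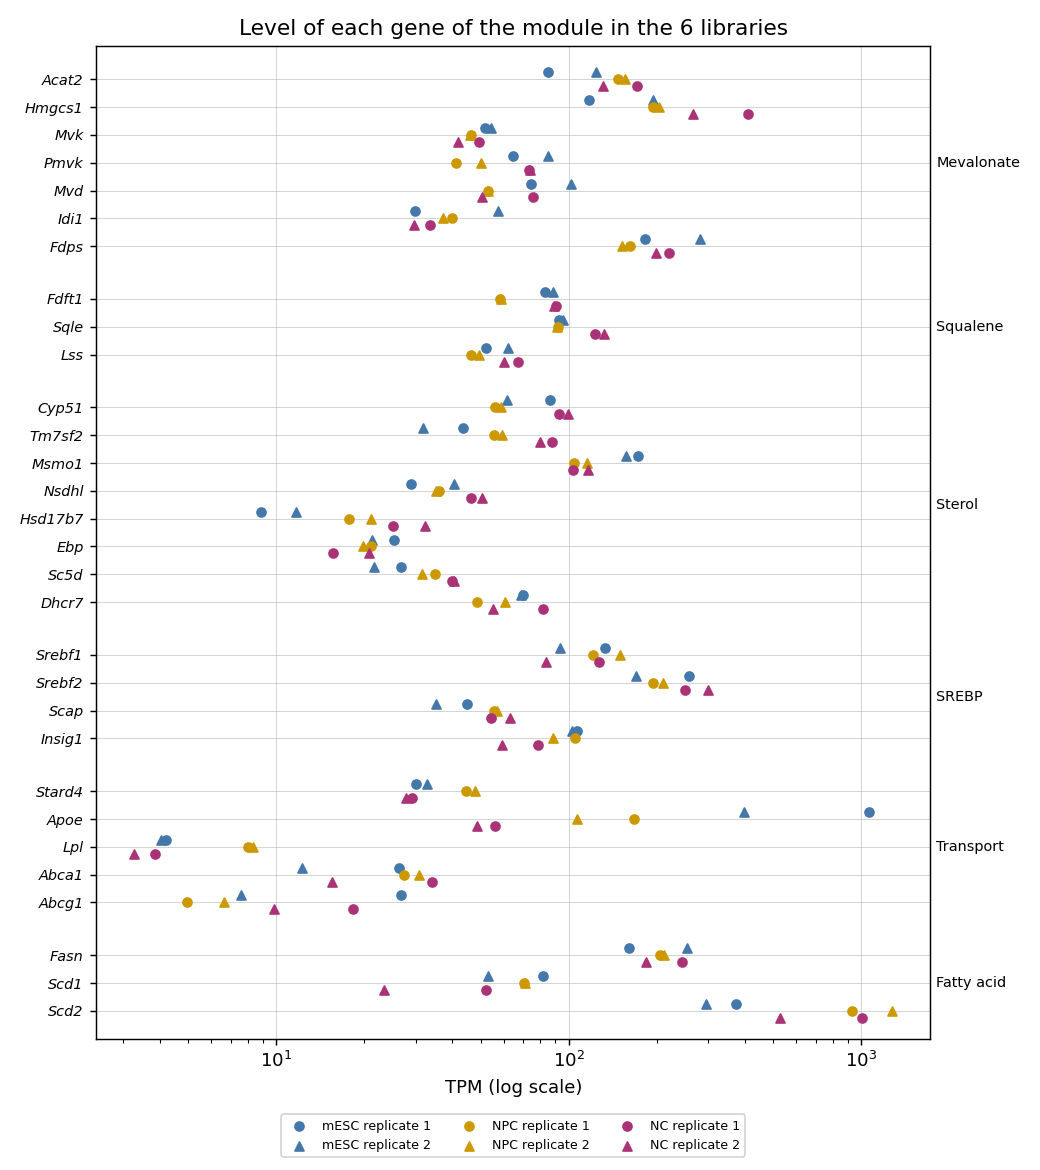
Level of each of the 30 genes in TPM (log axis), with 1 point per library, coloured by stage and shaped by replicate. Most rows keep all 6 points within a narrow band; Apoe, Scd2 and Hsd17b7 are among the rows that spread most by stage, and Abcg1 spreads within mESC, from 7.58 to 26.8 TPM.

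Between 6 and 10 of the 30 members were called in each contrast. A gene was called when limma, fitted on log2(TPM + 1) over all 20232 tested genes, gave a Benjamini-Hochberg adjusted p under 0.05. In NPC against mESC 9 of the 30 were called, beside 40.0% of all tested genes. Of these, 5 were higher and 4 lower, beside 26.0% and 14.0% of tested genes. In NC against NPC 6 were called, or 20.0%, beside 25.3% of tested genes; 4 were higher and 2 lower, beside 15.2% and 10.1%. In NC against mESC 10 were called, or 33.3%, beside 59.9% of tested genes; 7 were higher and 3 lower, beside 37.8% and 22.1%. The counts rested on single libraries: limma called 2 members in NPC against mESC without NPC replicate 1 and 0 without NPC replicate 2, where 6 and 5 had an unadjusted p under 0.05. In NC against NPC it called 0 without either NPC library, where 4 and 7 had an unadjusted p under 0.05, and 1 without NC replicate 2. The balance of that contrast turned to 1 higher and 5 lower without NC replicate 1, and to 3 and 4 with a replicate block. The 3 contrasts share libraries, so that their counts are not independent of each other.

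By their median, the differences of the enzymes were smaller than those of all tested genes in each contrast. Beside genes of like level they were smaller in NPC against mESC and NC against mESC, and alike in NC against NPC. Their median absolute log2 fold change was 0.42, 0.41 and 0.41 in the 3 contrasts, beside 0.60, 0.46 and 0.91 over all tested genes and 0.54, 0.40 and 0.82 over the 8441 tested genes whose mean level lies in the range of the enzymes, 19.5 to 231.0 TPM. None of the 18 reached a log2 fold change of 1 in either direction in NPC against mESC or in NC against NPC, and 3 did in NC against mESC: Hmgcs1, Tm7sf2 and Hsd17b7. Of all tested genes 30.5%, 20.3% and 45.9% reached it in the 3 contrasts. In the level range of the enzymes 27.1%, 15.9% and 41.3% did. In the module as a whole, 15 genes were called in at least 1 contrast, beside 66.6% of all tested genes, and 15 in none. The stage means of 14 members differed by less than 1.5-fold throughout, and the share of all tested genes under that limit is not given here. With 2 libraries a group an exact permutation test cannot give a two-sided p under 0.333, so that the calls rest on limma's pooled spread.

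Directions depend on the scale to which a change is referred. Over all tested genes the median of the log2 fold changes was 0.18 in NPC against mESC, 0.11 in NC against NPC and 0.31 in NC against mESC, and that of the 30 members was -0.05, 0.13 and 0.02. With median-of-ratios scaling, which centres the genes at large, 1 member was higher and 6 lower in NPC against mESC, 2 were higher and 2 lower in NC against NPC, and 2 were higher and 7 lower in NC against mESC. With quantile normalization the counts were 1 and 5, 2 and 3, and 5 and 8. The shares of all called genes that were higher moved from 65.0%, 60.1% and 63.2% to 52.7%, 54.6% and 52.3% with median-of-ratios scaling and to 51.2%, 47.7% and 47.2% with quantile normalization. On FPKM the members' counts were 3 and 5, 2 and 4, and 4 and 7, with 58.9%, 45.5% and 51.7% of all called genes higher. No call reversed its direction under any of the 16 alternatives.

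**Figure D3:**
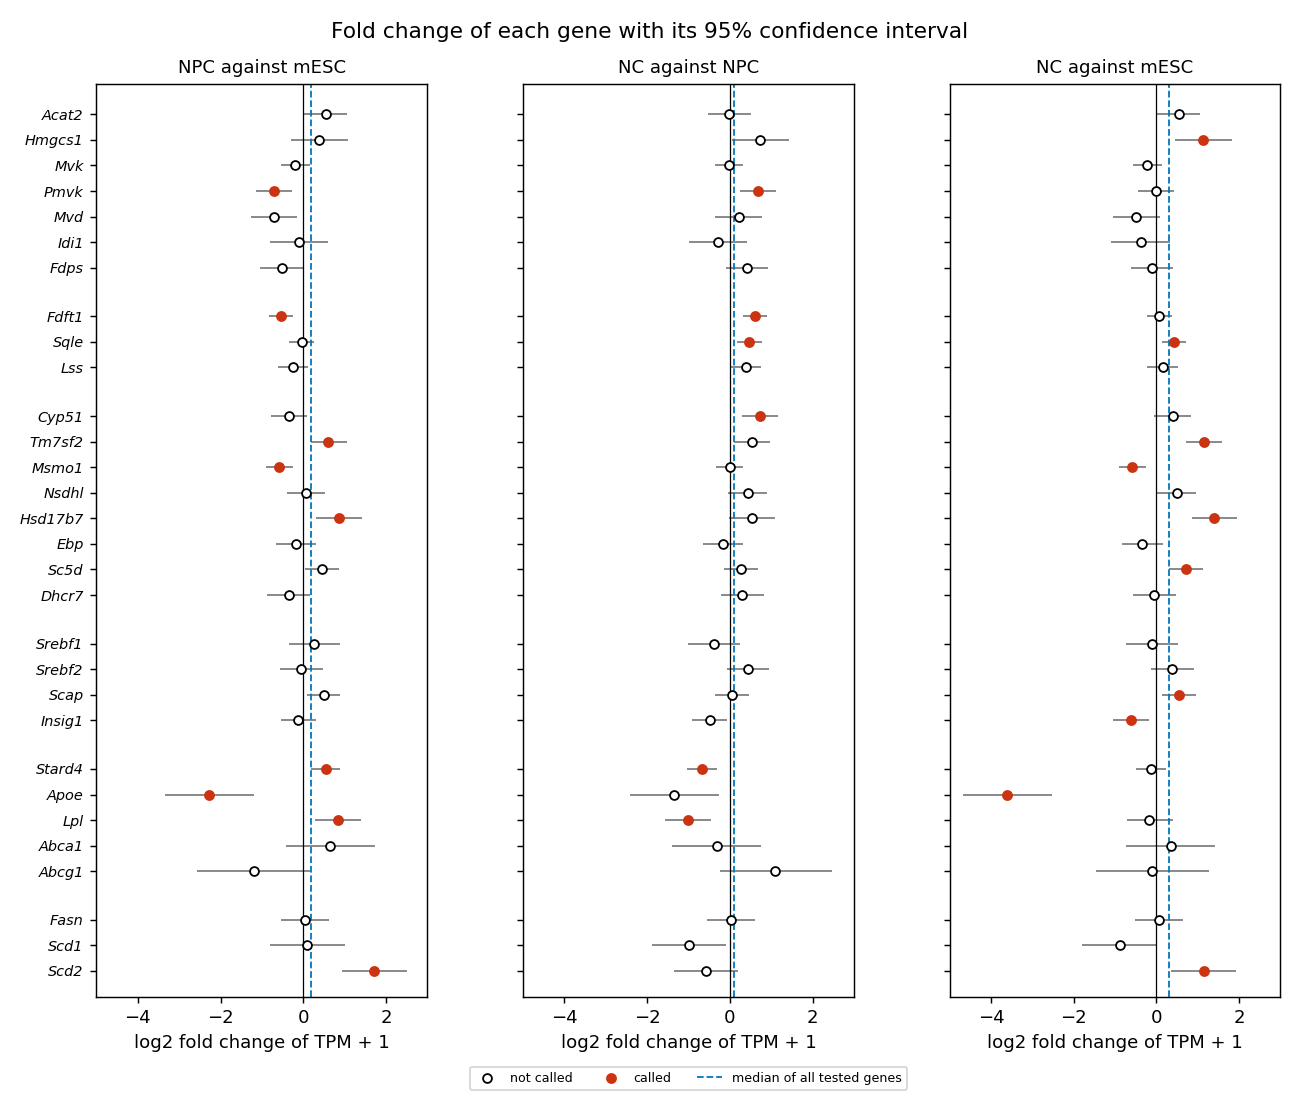
Log2 fold change of TPM + 1 of each gene in the 3 contrasts with its 95% confidence interval from limma; filled points were called and open points were not. The dashed line is the median of all tested genes, and only Apoe, Scd2, Tm7sf2, Hsd17b7, Hmgcs1 and Lpl have called points at or beyond 1 on either side of 0.

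The mevalonate steps held 1 of 7 genes called in each contrast, or 14.3%, beside 40.0%, 25.3% and 59.9% of all tested genes. Hmgcs1, the synthase that forms HMG-CoA (chromosome 13, 119690462 to 119708086, forward strand, mm10), was at 117 and 193 TPM (mESC), 193 and 203 TPM (NPC) and 411 and 267 TPM (NC). The 3 groups did not overlap, but mESC replicate 2 and NPC replicate 1 were level with each other, and the NC libraries were the highest. It rose from mESC to NC (log2 fold 1.13, SE 0.287, adjusted p = 0.0139 by limma), 2.18-fold by mean TPM. This call ended without NC replicate 1 or mESC replicate 1 (limma adjusted p = 0.0709 and 0.0569). Other settings that ended it were a fit with median-of-ratios scaling or without the filter (limma adjusted p = 0.0664 and 0.0623), and the fold change with median-of-ratios scaling was 0.82.

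Pmvk, the kinase that adds the second phosphate to mevalonate, was at 64.6 and 85.1 TPM (mESC), 41.0 and 50.1 TPM (NPC) and 72.9 and 73.8 TPM (NC), lowest in NPC with no overlap with either neighbour, while mESC and NC overlapped. It fell in NPC (log2 fold -0.70, SE 0.183, adjusted p = 0.0239 by limma) and rose again in NC (log2 fold 0.68, SE 0.183, adjusted p = 0.0383 by limma), 2 contrasts that share the NPC libraries. The first call ended without NPC replicate 1, NPC replicate 2 or mESC replicate 2 (limma adjusted p = 0.162, 0.0647 and 0.0907), and without the filter (limma adjusted p = 0.0624). The second ended without NC replicate 1, NC replicate 2, NPC replicate 1 or NPC replicate 2 (limma adjusted p = 0.0999, 0.12, 0.245 and 0.101). A fit on FPKM, with eBayes without a trend, with median-of-ratios scaling, without the filter or with quantile normalization (limma adjusted p = 0.0929, 0.0683, 0.0736, 0.0921 and 0.0584) ended it as well.

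The other 5 genes of these steps passed the test in no contrast. Acat2, the thiolase that joins acetyl-CoA units, was at 85.2 and 124 TPM (mESC), 147 and 155 TPM (NPC) and 171 and 131 TPM (NC), with both mESC libraries below the other 4. Mvd, the decarboxylase of the pathway, was at 74.4 and 102 TPM (mESC), 53.0 and 53.1 TPM (NPC) and 75.6 and 50.4 TPM (NC), and its NPC value missed the threshold at a log2 fold change of -0.70 and a limma adjusted p of 0.0545. Fdps, which makes farnesyl diphosphate, was at 182 and 282 TPM (mESC), 162 and 152 TPM (NPC) and 220.5 and 199 TPM (NC). Within mESC, replicate 2 was above replicate 1 for Acat2, Mvd, Fdps and Idi1, the isomerase, whose levels were 29.9 and 57.1 (mESC), 39.9 and 37.2 (NPC) and 33.6 and 29.5 (NC) TPM. Mvk, the first mevalonate kinase, varied least by stage, from 41.9 to 54.4 TPM, and its difference between NC and mESC had a 95% interval of -0.57 to 0.13 on the log2 scale.

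Summed in TPM, the squalene steps were lowest in NPC and highest in NC. The sum of Fdft1, Sqle and Lss was 228 and 246 (mESC), 196 and 199 (NPC) and 279.8 and 281 (NC) TPM, with no overlap between stages. The order of mESC and NC depends on the setting. Between them Fdft1 and Lss were not called, with log2 folds of -0.24 to 0.12 and -0.16 to 0.27 under the 16 alternatives. Fdft1, squalene synthase, was at 82.6 and 88.5 TPM (mESC), 58.1 and 58.5 TPM (NPC) and 90.5 and 89.1 TPM (NC); the NPC pair lies below the other 4 libraries. It fell in NPC (log2 fold -0.54, SE 0.125, adjusted p = 0.0147 by limma) and rose in NC (log2 fold 0.61, SE 0.125, adjusted p = 0.0165 by limma). Both calls ended when either NPC library was left out, with limma adjusted p of 0.112 and 0.114 in the first contrast and 0.143 and 0.121 in the second.

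Sqle, squalene epoxidase, a flux-controlling step, was at 92.7 and 95.7 TPM (mESC), 91.9 and 91.1 TPM (NPC) and 123 and 132 TPM (NC), so that mESC and NPC lay close together and both NC libraries stood above them. It rose in NC against NPC (log2 fold 0.47, SE 0.123, adjusted p = 0.0353 by limma) and against mESC (log2 fold 0.43, SE 0.123, adjusted p = 0.0221 by limma). The first call ended without NC replicate 1, NC replicate 2, NPC replicate 1 or NPC replicate 2 (limma adjusted p = 0.0576, 0.106, 0.212 and 0.204). It also ended on FPKM, with eBayes without a trend, with median-of-ratios scaling, with quantile normalization or with a replicate block (limma adjusted p = 0.123, 0.0889, 0.0816, 0.0548 and 0.0769). The second ended without NC replicate 2, NPC replicate 1, NPC replicate 2 or mESC replicate 1 (limma adjusted p = 0.0715, 0.0689, 0.0681 and 0.0507). It was lost too on FPKM, with eBayes without a trend, with median-of-ratios scaling, with only the 4 libraries compared or with a replicate block (limma adjusted p = 0.33, 0.0641, 0.477, 0.0645 and 0.0519). With median-of-ratios scaling its log2 fold was 0.12. Lss, which closes the ring to lanosterol, was at 52.2 and 62.1 TPM (mESC), 46.4 and 49.2 TPM (NPC) and 66.8 and 59.9 TPM (NC) and was not called.

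The sterol steps, from lanosterol to cholesterol, held 3 of the 4 member calls that no alternative ended. Of these 8 genes, 3, 1 and 4 were called in the 3 contrasts. Those are 37.5%, 12.5% and 50.0%, beside 40.0%, 25.3% and 59.9% of all tested genes. Tm7sf2 (chromosome 19, 6062821 to 6068373, reverse strand), a reductase of the sterol ring that acts after Cyp51, was at 43.5 and 31.8 TPM (mESC), 55.5 and 59.1 TPM (NPC) and 87.6 and 79.7 TPM (NC). The 3 stages did not overlap and each later stage was higher. It rose in NPC (log2 fold 0.61, SE 0.181, adjusted p = 0.0365 by limma) and from mESC to NC (log2 fold 1.15, SE 0.181, adjusted p = 0.00206 by limma). The mean TPM was 2.22-fold higher in NC than in mESC, which was called under all 16 alternatives. The NPC call ended without NPC replicate 1, NPC replicate 2 or mESC replicate 2 (limma adjusted p = 0.132, 0.19 and 0.114), with a log2 fold of 0.39 without the last. The same happened on FPKM, with eBayes without a trend, with median-of-ratios scaling, without the filter, with only the 4 libraries compared or with quantile normalization (limma adjusted p = 0.0526, 0.0664, 0.112, 0.0801, 0.0585 and 0.0692).

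Lbr, the lamin B receptor of the nuclear envelope, can carry out the same reduction and went the other way. Lbr is not a member of the module. It was at 253 and 177 TPM (mESC), 105 and 111 TPM (NPC) and 41.2 and 55.7 TPM (NC), without overlap, and fell from mESC to NC (log2 fold -2.12, SE 0.22, adjusted p = 0.000361 by limma), which was called under all 16 alternatives with log2 fold changes of -2.43 to -1.86. The ratio of Tm7sf2 to Lbr within a library, which no single factor per library moves, was 0.172 and 0.179 (mESC), 0.528 and 0.534 (NPC) and 2.13 and 1.43 (NC). Tm7sf2 was thus below Lbr in all mESC and NPC libraries and above it in both NC libraries. Of the exon bases of Tm7sf2, 12.1% are shared with Vps51 on the same strand, which was listed at 40.8 to 101 TPM. Reads on these bases could come from either gene, so that the level of Tm7sf2 is uncertain as well.

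**Figure D4:**
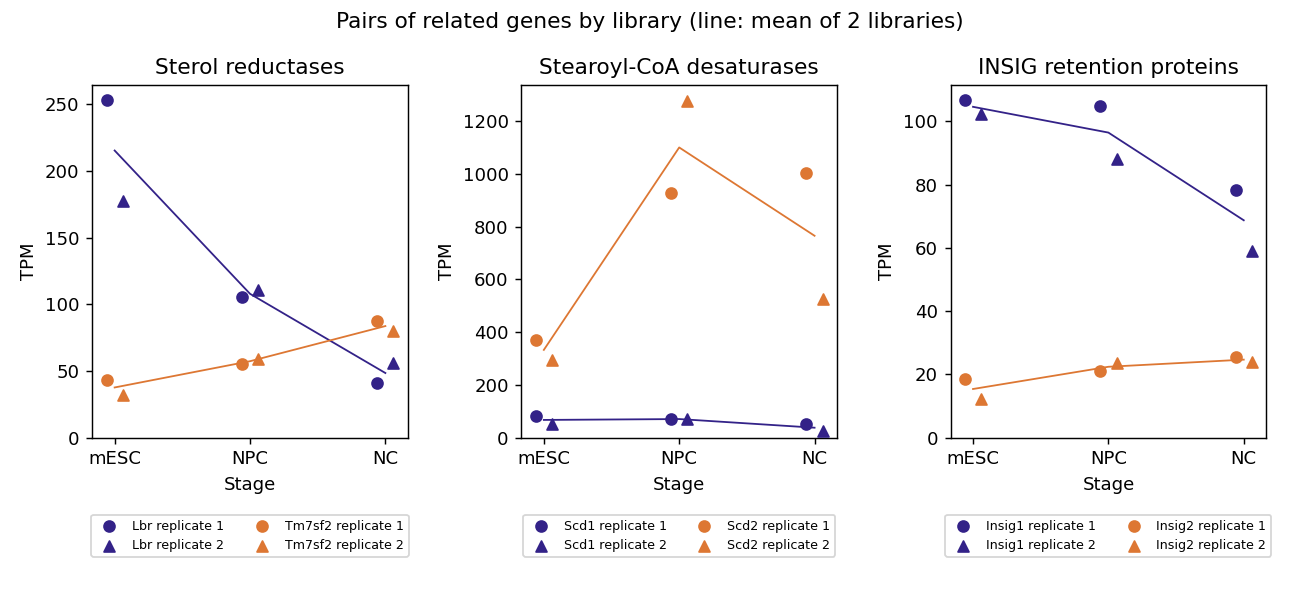
Levels in TPM of 3 pairs of related genes by stage, with 1 point per library and lines through the means of 2 libraries. Tm7sf2 lies below Lbr in mESC and NPC and above it in NC, Scd2 stands above Scd1 in every library, and Insig1 stands above Insig2 in every library by a margin that is smallest in NC.

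Hsd17b7 (chromosome 1, 169949535 to 169969241, reverse strand), a ketoreductase in the removal of methyl groups, was at 8.88 and 11.7 TPM (mESC), 17.8 and 21.1 TPM (NPC) and 25.1 and 32.4 TPM (NC), in 3 steps that did not overlap. It rose in NPC (log2 fold 0.86, SE 0.227, adjusted p = 0.0239 by limma) and from mESC to NC (log2 fold 1.40, SE 0.227, adjusted p = 0.00231 by limma). The latter was a 2.79-fold difference of the mean TPM and was called under all 16 alternatives. Its NPC call ended without NPC replicate 1, NPC replicate 2 or mESC replicate 1 (limma adjusted p = 0.0773, 0.161 and 0.089). So it did with median-of-ratios scaling, without the filter or with quantile normalization (limma adjusted p = 0.0623, 0.0561 and 0.161). Msmo1 (chromosome 8, 64718139 to 64733792, reverse strand), the methylsterol oxidase that opens the same series of reactions, moved the opposite way, at 172 and 157 TPM (mESC), 104 and 115 TPM (NPC) and 103 and 116 TPM (NC). Both mESC libraries stood above the other 4, and NPC and NC overlapped. Msmo1 fell in NPC (log2 fold -0.58, SE 0.137, adjusted p = 0.0161 by limma) and was as low in NC (log2 fold -0.58, SE 0.137, adjusted p = 0.0105 by limma), where its call held under all 16 alternatives. The NPC call ended without NPC replicate 1, NPC replicate 2 or mESC replicate 1 (limma adjusted p = 0.135, 0.0792 and 0.0526).

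Nsdhl, the dehydrogenase between Msmo1 and Hsd17b7 in this series, was not called, at 28.8 and 40.5 TPM (mESC), 36.1 and 35.1 TPM (NPC) and 46.1 and 50.4 TPM (NC), with the NC libraries highest. Cyp51, the demethylase of lanosterol, was at 86.1 and 61.6 TPM (mESC), 56.1 and 58.6 TPM (NPC) and 92.6 and 99.4 TPM (NC). Its NC libraries stood above all others and it rose in NC against NPC (log2 fold 0.73, SE 0.183, adjusted p = 0.0309 by limma). That call ended without NC replicate 1, NC replicate 2, NPC replicate 1 or NPC replicate 2 (limma adjusted p = 0.0751, 0.113, 0.179 and 0.136), and with eBayes without a trend or without the filter (limma adjusted p = 0.0583 and 0.0824). Sc5d, a desaturase near the end of the pathway, was at 26.8 and 21.5 TPM (mESC), 34.9 and 31.5 TPM (NPC) and 39.8 and 40.4 TPM (NC), in 3 steps without overlap. It rose from mESC to NC (log2 fold 0.72, SE 0.17, adjusted p = 0.0106 by limma), and the call ended with median-of-ratios scaling or with quantile normalization (limma adjusted p = 0.0627 and 0.139). The remaining pair passed in no contrast: Ebp, an isomerase, lay between 15.7 and 25.2 TPM, and Dhcr7, the last reductase, between 48.7 and 81.5 TPM.

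In the SREBP system the escort Scap was called higher and Insig1 lower from mESC to NC, and neither factor was called. Srebf2, which encodes SREBP-2, was at 258 and 169.9 TPM (mESC), 194 and 211 TPM (NPC) and 250.4 and 298 TPM (NC), and Srebf1, whose products act more on fatty acid genes, at 133 and 93.6 TPM (mESC), 121 and 149.9 TPM (NPC) and 127 and 83.5 TPM (NC). All groups of Srebf1 overlapped, and NC stood above NPC for Srebf2. Scap, the escort, was at 44.8 and 35.1 TPM (mESC), 55.5 and 56.8 TPM (NPC) and 54.0 and 62.9 TPM (NC), with both mESC libraries lowest. It rose from mESC to NC (log2 fold 0.54, SE 0.172, adjusted p = 0.0311 by limma). This call ended without NC replicate 2, NPC replicate 1, NPC replicate 2 or mESC replicate 2 (limma adjusted p = 0.124, 0.0713, 0.071 and 0.114). Further settings that ended it were a fit on FPKM, with eBayes without a trend, with median-of-ratios scaling, without the filter, with only the 4 libraries compared, with quantile normalization or with a replicate block (limma adjusted p = 0.177, 0.0573, 0.216, 0.0553, 0.0741, 0.2 and 0.0551). Insig1, which retains the SREBP complex and is itself an SREBP target, was at 107 and 102 TPM (mESC), 105 and 88.1 TPM (NPC) and 78.4 and 59.0 TPM (NC); both NC libraries were the lowest. It fell from mESC to NC (log2 fold -0.61, SE 0.179, adjusted p = 0.0237 by limma), and the call ended without NC replicate 2, mESC replicate 1 or mESC replicate 2 (limma adjusted p = 0.0955, 0.0746 and 0.0621), and without the filter (limma adjusted p = 0.0581). Insig2, a paralogue outside the module, was at 18.5 and 12.2 TPM (mESC), 21.1 and 23.7 TPM (NPC) and 25.5 and 23.9 TPM (NC). Unlike Insig1, it rose from mESC to NC, by 0.67 on the log2 scale, a call that ended under 12 of the 16 alternatives. The ratio of Insig1 to Insig2 was 5.76 and 8.37 (mESC), 4.96 and 3.72 (NPC) and 3.08 and 2.47 (NC).

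Apoe carried the largest change of the module. Apoe (chromosome 7, 19696109 to 19699166, reverse strand) encodes the lipoprotein that carries cholesterol between cells, and it was at 1061 and 397 TPM (mESC), 167 and 106 TPM (NPC) and 56.0 and 48.6 TPM (NC). Each stage was lower than the one before and no groups overlapped, although mESC replicate 1 was 2.67 times as high as replicate 2. It fell in NPC (log2 fold -2.28, SE 0.449, adjusted p = 0.00814 by limma) and between mESC and NC (log2 fold -3.61, SE 0.449, adjusted p = 0.000749 by limma), where the mean TPM was 13.9-fold lower and the call held under all 16 alternatives. The NPC call ended without NPC replicate 2 (limma adjusted p = 0.0554) and without the filter (limma adjusted p = 0.0529). From NPC to NC the difference was -1.34 on the log2 scale, with a limma adjusted p of 0.0728, and was not called.

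Markers of other cell types moved with Apoe inside mESC. The 10 endoderm markers summed to 204 and 39.8 (mESC), 226 and 149 (NPC) and 32.6 and 57.0 (NC) TPM; all 10 were higher in mESC replicate 1 than in replicate 2, with Cubn at 81.1 and 13.2, Gata4 at 38.9 and 8.42 and Amn at 26.8 and 5.10 TPM, and Ttr, Afp and Apoa1 at 0 in replicate 2. The NPC and mESC sums overlapped, while both NPC libraries were lower in Apoe than either mESC library. Further marker sums were higher in mESC replicate 1 than in replicate 2. They were those of fibroblast and smooth muscle (126 and 81.8 TPM), endothelium (57.3 and 36.2), astrocyte and radial glia (185 and 123) and oligodendrocyte lineage (58.1 and 38.0). Sums of neural progenitor (199 and 261), neuron (99.2 and 129) and cycling cell markers (1209.7 and 1239) were higher in replicate 2. Without mESC replicate 1 the difference of Apoe between NC and mESC was -2.90 on the log2 scale and still called. Of the markers of microglia, which make ApoE in the brain, Tyrobp, Trem2 and Lyz2 were listed at 0 in all 6 libraries, and the 10 markers, chiefly Cd68, summed to 9.41 and 6.03 (mESC), 4.57 and 3.61 (NPC) and 5.61 and 12.3 (NC) TPM. The NC libraries differed in astrocyte and radial glia markers, with Fabp7 at 792 and 164 and Aldoc at 98.6 and 3.02 TPM in replicates 1 and 2, while their Apoe levels, 56.0 and 48.6 TPM, were alike. The part of these cell types in the Apoe values was not tested.

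**Figure D5:**
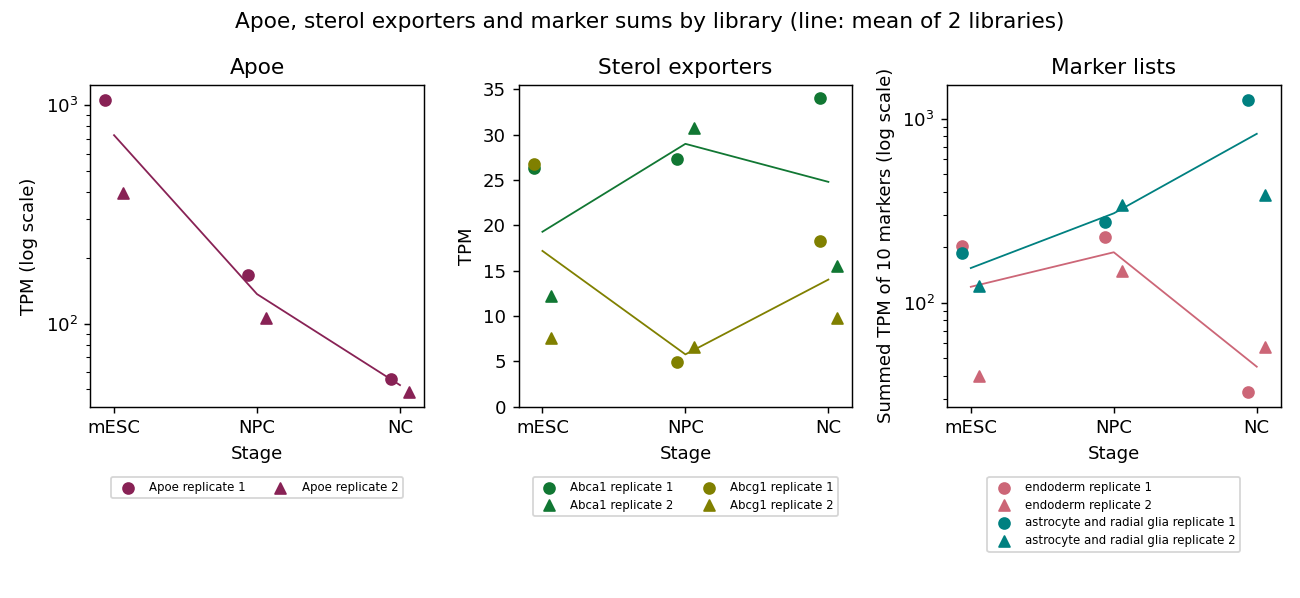
Apoe (TPM, log axis), the sterol exporters Abca1 and Abcg1 (TPM), and the summed TPM of 10 endoderm and 10 astrocyte and radial glia markers (log axis) by stage, with 1 point per library and lines through the means of 2 libraries. Apoe is lower at each later stage, while the exporters and the endoderm sum differ between the 2 mESC libraries.

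Neither exporter was called in any contrast, and their replicates lay far apart in mESC and NC. Abca1, which hands cholesterol to lipoproteins, was at 26.4 and 12.2 TPM (mESC), 27.3 and 30.7 TPM (NPC) and 34.0 and 15.6 TPM (NC), and Abcg1, which hands it to mature lipoproteins, at 26.8 and 7.58 TPM (mESC), 4.93 and 6.61 TPM (NPC) and 18.2 and 9.80 TPM (NC). In mESC and in NC both were higher in replicate 1, by up to 3.53-fold. Both NPC libraries of Abcg1 were below the other 4, and both NPC libraries of Abca1 were above those of mESC. The 95% interval of Abcg1 between NPC and mESC ran from -2.56 to 0.16 on the log2 scale. Replicate 1 was also the one with more endoderm marker RNA in mESC, as with other marker lists there, and more astrocyte marker RNA in NC. The part of these cells was not tested. The ratio of Abcg1 to Abca1 was lowest in NPC, at 0.181 and 0.215, beside 1.02 and 0.621 in mESC and 0.536 and 0.63 in NC.

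A pair of transport genes peaked in NPC. Stard4, a soluble carrier of sterol between membranes, was at 30.03 and 32.7 TPM (mESC), 44.6 and 47.9 TPM (NPC) and 29.2 and 27.8 TPM (NC). Both NPC libraries stood above the other 4. It rose in NPC (log2 fold 0.55, SE 0.147, adjusted p = 0.0263 by limma) and fell in NC (log2 fold -0.68, SE 0.147, adjusted p = 0.0201 by limma). Lpl, the lipase that frees fatty acids from lipoproteins, was at 4.21 and 4.02 TPM (mESC), 7.99 and 8.33 TPM (NPC) and 3.85 and 3.27 TPM (NC), the lowest of the module in mESC and NC, again with NPC above all others. It rose in NPC (log2 fold 0.84, SE 0.232, adjusted p = 0.0281 by limma) and fell in NC (log2 fold -1.01, SE 0.232, adjusted p = 0.0237 by limma). Of 6 markers of fat cells, where Lpl is abundant, none passed the filter; they summed to 1.53 and 0.608 TPM in NPC, chiefly Pparg, and to at most 0.907 elsewhere, and their part was not tested. For Stard4, the NPC call ended without NPC replicate 1, NPC replicate 2 or mESC replicate 1 (limma adjusted p = 0.123, 0.193 and 0.0736). It ended as well on FPKM, with median-of-ratios scaling, with quantile normalization or with a replicate block (limma adjusted p = 0.0573, 0.153, 0.13 and 0.0586). Its NC call ended without NC replicate 2, NPC replicate 1 or NPC replicate 2 (limma adjusted p = 0.0634, 0.132 and 0.156). For Lpl, the NPC call ended without NPC replicate 1, NPC replicate 2, mESC replicate 1 or mESC replicate 2 (limma adjusted p = 0.128, 0.156, 0.0789 and 0.1). Further losses came with median-of-ratios scaling, without the filter, with quantile normalization or with a replicate block (limma adjusted p = 0.0666, 0.0512, 0.185 and 0.0572). The NC call of Lpl ended without NC replicate 2, NPC replicate 1 or NPC replicate 2 (limma adjusted p = 0.0679, 0.143 and 0.14), and without the filter or with only the 4 libraries compared (limma adjusted p = 0.0532 and 0.0529).

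Among the fatty acid enzymes, Scd2 changed and Fasn did not pass. Scd2 (chromosome 19, 44293676 to 44306864, forward strand), the stearoyl-CoA desaturase that the brain uses most, was at 372 and 294 TPM (mESC), 926 and 1275 TPM (NPC) and 1005 and 527 TPM (NC). All NPC and NC libraries stood above both mESC libraries, while NPC and NC overlapped. It rose in NPC (log2 fold 1.71, SE 0.326, adjusted p = 0.00709 by limma), a 3.31-fold difference of the mean TPM, and from mESC to NC (log2 fold 1.14, SE 0.326, adjusted p = 0.0223 by limma). The NPC call ended without NPC replicate 2 (limma adjusted p = 0.0527). The NC call ended without NC replicate 1, where the log2 fold was 0.67, or mESC replicate 2 (limma adjusted p = 0.0765 and 0.108), and on FPKM, with median-of-ratios scaling or without the filter (limma adjusted p = 0.0585, 0.0758 and 0.0905).

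Scd1, the desaturase best known from liver and fat, was at 81.5 and 53.0 TPM (mESC), 70.1 and 71.0 TPM (NPC) and 52.1 and 23.4 TPM (NC) and was not called. The ratio of Scd2 to Scd1 was 4.56 and 5.55 (mESC), 13.2 and 18.0 (NPC) and 19.3 and 22.5 (NC), so that every NPC and NC library exceeded every mESC library. In NC both desaturases were higher in replicate 1, the library with more astrocyte and radial glia marker RNA, and the part of those cells was not tested. Fasn, fatty acid synthase, was at 161 and 254 TPM (mESC), 204 and 212 TPM (NPC) and 243 and 184 TPM (NC), with overlap in every contrast; its difference between NC and mESC was 0.06 with a 95% interval of -0.52 to 0.64 on the log2 scale.

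Genes around the module were taken from 4 lists of 68 genes, of which 66 were tested. Of these, 22 rose and 8 fell in NPC against mESC, and 8 and 3 in NC against NPC. In NC against mESC 30 rose and 9 fell. The shares called were 45.5%, 16.7% and 59.1% of the 66, beside 40.0%, 25.3% and 59.9% of all tested genes. With median-of-ratios scaling the last contrast held 21 higher and 16 lower. Among 9 tested sterol and isoprenoid enzymes, 4 rose and 2 fell from mESC to NC, or 66.7% called beside 59.9% of all tested genes. Median-of-ratios scaling and FPKM each gave 1 and 4, and quantile normalization gave 3 and 4. Dhdds, which makes dolichol, rose in NPC by 1.15 on the log2 scale and Por, the electron donor of Cyp51 and Sqle, by 0.82; the call of Por ended without either NPC library (limma adjusted p up to 0.132), and its value was 0.51 without mESC replicate 2.

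In the list of SREBP control genes, 4 of 12 rose from mESC to NC and 0 fell (limma, with 1 lower at an unadjusted p under 0.05), while median-of-ratios scaling gave 2 and 3. The 4 are 33.3% of the list, beside 59.9% of all tested genes called. Rnf145, a ubiquitin ligase of the endoplasmic reticulum, rose from mESC to NC by 0.99, a call that held under all 16 alternatives with log2 fold changes of 0.68 to 1.09. Nr1h2, the liver X receptor of most tissues, fell in NPC by 0.59, a call that ended without either NPC library or mESC replicate 1 (limma adjusted p up to 0.18, and a log2 fold of -0.38 without the latter), and Nr1h3 did not pass the filter.

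Receptors and carriers of lipoproteins included rises larger than that of any of the 18 enzymes. Of 20 genes of uptake, traffic and turnover, 11 rose and 2 fell from mESC to NC, or 65.0% called beside 59.9% of all tested genes. The ApoE receptors Lrp1, Lrp8 and Vldlr rose by 2.93, 2.32 and 3.03 on the log2 scale while Apoe itself fell; Lrp1 was at 26.2 and 14.4 (mESC), 57.5 and 72.5 (NPC) and 153 and 157 (NC) TPM. Vldlr was at 8.68 and 0.477 TPM in mESC, and leaving out the second or the first of these moved its value to 1.67 or 4.38. Its call ended without NC replicate 2 (limma adjusted p = 0.0911). The exporter Abcg4, found mainly in the nervous system, rose by 4.18 from 0.156 and 0.103 TPM in mESC to 20.8 and 18.2 in NC. Cyp46a1, which makes the hydroxylated form in which the brain clears cholesterol, rose in NPC by 3.29. Gramd1a, a sterol carrier at membrane contacts, rose by 2.44 from mESC to NC. Nceh1 and Scarb1 fell by 0.91 and 0.86 from mESC to NC. The call of Nceh1 ended without NC replicate 1 or mESC replicate 1 (limma adjusted p up to 0.0972) and that of Scarb1 without NC replicate 2 or mESC replicate 1 (limma adjusted p up to 0.127, and a log2 fold of -0.54 without the latter). Npc1, which moves cholesterol out of lysosomes, was called in no contrast.

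Of 25 further fatty acid synthesis genes, 11 rose and 5 fell from mESC to NC, or 64.0% called beside 59.9% of all tested genes. The desaturase Fads3 and the ligase Acsl6 rose by 1.96 and 3.36 on the log2 scale, and Elovl2, an elongase of polyunsaturated chains, rose in NPC by 1.75. Acacb, the carboxylase form linked to fat oxidation, fell by 2.61, Mlxipl, a sugar-sensing transcription factor, by 2.13, and the ligase Acsl1 fell in NPC by 1.76.

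Replicates of the members differed most in mESC. The higher replicate exceeded the lower by over 1.5-fold for 9 of 30 genes in mESC, 1 in NPC and 6 in NC, a share of 3.33% in NPC and 20.0% in NC, beside 22.8%, 11.4% and 24.8% of all genes at 1 TPM or more in mESC, NPC and NC. Some levels also rest on reads that near copies could share: Gm13502, a pseudogene identical to Idi1 over 684 bases, was listed at 21.7 to 48.4 TPM, Gm3571 at 25.4 to 48.8 TPM beside Fdps, and Acat3 at 25.6 to 50.4 TPM beside Acat2, so that Idi1, Fdps and Acat2 are uncertain. The same holds for Acat2 beside Tcp1, at 392 to 561 TPM, for Fdft1 beside the pseudogene Gm6781, at 10.3 to 18.5 TPM, and for the desaturases, since Scd2 matched Scd1 at 95.5% identity over 623 bases and Scd1 matched Scd3 at 91.4% over 1053. Fdft1 shares 18.3% of its exon bases with Ctsb on the opposite strand, Cyp51 3.76% with Akap9 and Scap 13.2% with 5830462I19Rik, which without a stated strand setting cannot be told apart in the counting.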

How the data were processed

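The 6 deposited tables are gene abundance output of StringTie, per the file headers, with 1 table per library. Per the submitters' processing notes the tools were STAR 2.7.9a and StringTie 2.1.5, besides cutadapt 3.4, FastQC, DESeq2 and R 4.0.3, and the build was mm10. Per the labels, poly(A) RNA was enriched and ribosomal RNA depleted before Ion Proton sequencing. The strand setting and the annotation release are not given in the sources used. The deposited TPM values are levels per length with an equal sum for every library. The deposited FPKM values are the same abundances relative to all aligned bases, and the deposited coverage is the mean depth over exons. Among genes with an FPKM of 1 or more, 38.3% to 39.7% shared 1 constant per library for coverage divided by FPKM (tolerance 0.1%). That constant was taken as the aligned bases, and the other genes gave other ratios. The tables hold no counts, so that no counting interval can be given.

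Repeated lines of a gene ID were summed. Genes at 1 TPM or more in 2 or more of the libraries, 20232 in all, entered limma 3.58.1 (R 4.3.3, eBayes with a trend after lmFit) on log2(TPM + 1), with 1 coefficient per group, no block, and 3 residual and 3.55 prior degrees of freedom. Fold changes are on this scale, which understates the change of low genes. The 16 alternatives were other pseudocounts (0.1 and 0.5), no filter, a filter at 5 TPM, median-of-ratios and quantile scaling, FPKM, no trend, only the 4 libraries compared, a replicate block, and leaving out each library. The fit was tested on simulated data. All 30 members are named. From the other lists, per contrast, the 2 called genes with the largest rise and the 2 with the largest fall are named, with Insig2, Npc1 and leading markers; some of these genes are not reported here. Members and lists were chosen with earlier results of these data known. Near copies were sought with blastn 2.17.0 (at least 90% identity over 200 bases). Promoter windows are from RefSeq.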

Additional observations from a re-analysis of the deposited data

How the results depend on the processing

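Of the 25 calls among the 30 members, 4 held under all 16 alternatives, namely Tm7sf2, Hsd17b7, Msmo1 and Apoe in NC against mESC. The share of calls that held over all tested genes is not given here. The other 21 were lost under at least 1, none reversed, and 23 of the 65 differences not called were called under at least 1. Without the filter on low values the members called went from 9 to 4 in NPC against mESC, from 6 to 3 in NC against NPC and from 10 to 6 in NC against mESC. The genes called in NC against NPC went from 5123 to 3166. Without a trend 3 members were called in NC against NPC. Leaving out 1 library gave 0 to 10 members and 4138 to 8680 genes in NPC against mESC, and 0 to 8 members and 805 to 5264 genes in NC against NPC. The lowest of these came without NPC replicate 1 (2 members and 4733 genes, then 0 and 805) or NPC replicate 2 (0 and 4138, then 0 and 1454), and without NC replicate 2 only 1 member was called in NC against NPC. Where limma called 0 members, 4 to 7 had an unadjusted p under 0.05. A group left with 1 library is assumed to vary like the others.

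Across genes, the replicate differences of the stages were nearly uncorrelated, at 0.045, -0.082 and -0.07. Such values cannot exclude that same-numbered libraries share a culture, and the labels do not say whether they do. With a replicate block in the fit, 7, 7 and 9 members and 7368, 4247 and 11575 genes were called in the 3 contrasts. Depth cannot be turned into a detection limit without counts, and with 2 libraries a group the call of a single gene rests largely on the spread shared over genes.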

Other observations

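Among pairs of genes that belong together in the pathway, the SREBP genes gave a ratio that differed between libraries of a stage. The ratio of Srebf2 to Srebf1 was 1.94 and 1.81 (mESC), 1.60 and 1.40 (NPC) and 1.97 and 3.57 (NC), and the 2 NC libraries differed from each other by more than the mESC and NPC libraries did.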
